A study of Equus caballus with 26 samples.

Results

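Neutrophils carry antimicrobial proteins in granules, and 10 genes that encode such proteins are described here in the blood of endurance horses. *OLFM4*, *LTF*, *LCN2*, *MMP8* and *PGLYRP1* stand for the secondary (specific) granules, and *MPO*, *CTSG*, *AZU1*, *PRTN3* and *BPI* for the primary (azurophil) granules. They were taken by name from a list, chosen with earlier results of these data known. A probe was found for 8 of these 10 genes among the 24415 gene names of the array, and for *CTSG* and *AZU1* no probe was found.

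RNA was taken from whole blood drawn into PAXgene tubes, described in the labels as RNA of circulating leukocytes, and hybridised to an equine Agilent array of 1 colour. Horses were ridden in a 160 km endurance competition, and blood was drawn at rest before the ride (T0) or straight after it (T1). The arrays analysed here cover only some of the horses that the study describes for each of its sets. In the training set, called experimental by the study, they come from 3 geldings (horses 2, 32 and 41), each with 1 array at T0 and 1 at T1. The validation set gave 7 horses at T0 (3 females and 4 geldings) and 13 other horses at T1 (3 females and 10 geldings), so each of its horses has 1 array. All horses were pure-bred or half-bred Arabians by the study's methods, none received an agent or carried an engineered allele, and the ages of single horses were not used here. By the same methods, every horse of the study's validation set sampled at T1 completed the ride whereas most of those sampled at T0 did not, so that in the validation set time point and outcome cannot be told apart.

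Granules are made in sequence while a neutrophil matures in the bone marrow. Primary granule proteins are made first, at the promyelocyte stage, secondary granule proteins at the myelocyte and metamyelocyte stages, and gelatinase granule proteins last, in band cells. The transcripts of each class are abundant at the stage at which its granule is built and low in the segmented cell, so their presence in blood is commonly read as a sign of young neutrophils that have left the marrow early.

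Between 60.2% and 75.3% of the probes of an array were well above background. 2 validation arrays stand apart for these genes. A single scanner pass, where the other arrays had 2, was recorded for horse 34 (T1). All 431 saturated spots of the series are its own, those of *MMP8* and *PGLYRP1* among them, so its values for these genes are lower limits. Horse 47 at T0 had the highest T0 level of the validation set for all 6 of the granule genes that were well above background on every T1 array. Some of the changes, spreads and correlations below are also given without them.

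The probes are shown because the identity of several of these genes rests on them. Capitals mark a stop codon that closes a reading frame open over the rest of the probe. Such a stop was found in the probes of *OLFM4*, *LCN2*, *MMP8* and *PGLYRP1*, which therefore read the end of the coding sequence. Positions are those of the array annotation, whose scanner header names the EquCab1 horse genome.

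OLFM4, first probe: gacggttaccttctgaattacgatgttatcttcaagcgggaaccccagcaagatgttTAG
OLFM4, second probe: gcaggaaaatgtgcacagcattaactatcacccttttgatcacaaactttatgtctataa
LCN2: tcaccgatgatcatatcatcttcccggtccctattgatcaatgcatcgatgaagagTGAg
MMP8, first probe: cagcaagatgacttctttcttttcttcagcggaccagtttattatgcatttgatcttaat
MMP8, second probe: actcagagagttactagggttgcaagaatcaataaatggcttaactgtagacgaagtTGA
PGLYRP1: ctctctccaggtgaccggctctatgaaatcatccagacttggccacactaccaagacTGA
MPO: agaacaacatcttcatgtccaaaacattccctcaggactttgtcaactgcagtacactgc
PRTN3: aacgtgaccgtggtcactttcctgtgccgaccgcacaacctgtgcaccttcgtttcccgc

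The first *OLFM4* probe lies on the plus strand at chr17:28312130-28312189, and the second ends 1 base before it starts, at chr17:28312069-28312128. The *LCN2* probe lies on the minus strand, and its 60 bases span 847 bases of the genome at chr25:7178644-7179490, so it crosses an intron. The first *MMP8* probe, on the minus strand at chr7:9265282-9265507, likewise spans 226 bases and crosses an intron, and the second follows it without a gap at chr7:9265222-9265281. The *PGLYRP1* probe lies on the minus strand at chr10:16547976-16548035. Its gene name in the files is LOC100071026, and it was named through the gene symbols of the study's additional files. The *MPO* probe lies on the minus strand at chr11:31277330-31277389. The *PRTN3* probe is placed on unassigned sequence, at chrUn:361115216-361115275. *LCN2* and *PRTN3* were named through the gene IDs of the RefSeq gene table (TB-T2T assembly), in which *PRTN3* lies between *AZU1* and *ELANE*.

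The remaining genes, *LTF* and *BPI*, had probes that cannot be placed in the coding sequence by their letters, and the same holds for *MPO* and *PRTN3*. *LTF* had a probe on the plus strand at chr16:40349555-40349614 and a probe of 50 bases, spotted 2 times, that shares 47 bases with it. *BPI* had 3 probes on the plus strand between chr22:28574537 and chr22:28574636 that overlap by 20 or 40 bases. Probes of 1 gene that overlap are not independent measurements.

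Levels below are log2 signals relative to the 75th percentile of their array, so a level below 0 is dimmer than that percentile. They are compared between samples and not between genes. Changes are T1 minus T0 on the log2 scale, fitted with limma over all gene names well above background on enough arrays, and p-values were adjusted by Benjamini-Hochberg over all gene names tested. The training fit compared each horse with itself.

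After the ride, the levels of *LTF*, *LCN2* and *MMP8* were higher in both sets, and that of *PGLYRP1* in the validation set. These levels are relative to the rest of an array and do not give amounts of mRNA in blood. *OLFM4* was above background on all T1 arrays and near or below it on several T0 arrays, with a fitted log2 change of 6.63 in the training set and 5.79 in the validation set, or 3.72 and 3.55 after normexp background correction with quantile normalization. Its size and its place among the granule genes are uncertain, since at T0 it was not well above background on 2 of 3 training arrays and 2 of 7 validation arrays, and it entered both fits through its T1 arrays. Among the other secondary granule genes the changes ran from *LTF* through *MMP8* and *LCN2* down to *PGLYRP1*, with intervals that overlap between neighbours. Of the primary granule genes, *BPI* rose by about as much as *LTF*, whereas *MPO* and *PRTN3* were dim at both time points and did not pass the test or could not be tested. In whole blood, a change in the number of cells of a type and a change in the RNA per cell cannot be told apart.

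*OLFM4* aside, 4 of the 6 granule genes tested passed in the training set, all of them higher at T1 (*LTF*, *LCN2*, *MMP8* and *BPI*), where 10.1% of the 17490 gene names tested passed in either direction, 6.16% as higher and 3.95% as lower. This tilt towards higher belongs to the scale: after normexp with quantile normalization 6.58% were higher and 7.06% lower, after quantile normalization 5.75% and 5.87%, and with the deposited log2 values 6.08% and 6.71%. In the validation set 5 of these 6 passed, again all higher, the same genes and *PGLYRP1*, where 44.2% of 17405 gene names passed, 20.3% as higher and 23.9% as lower. *MPO*, the gene that did not pass there, entered that fit through its T0 arrays. With *OLFM4* the counts were 5 of 7 and 6 of 7. *PRTN3* was above background on too few arrays to be tested in either set. The changes of the 4 other secondary granule genes ran from 1.63 to 3.57 in the training set and from 1.32 to 3.32 in the validation set, beside a median of 0.03 and -0.07 over all gene names tested.

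**Figure D1:**
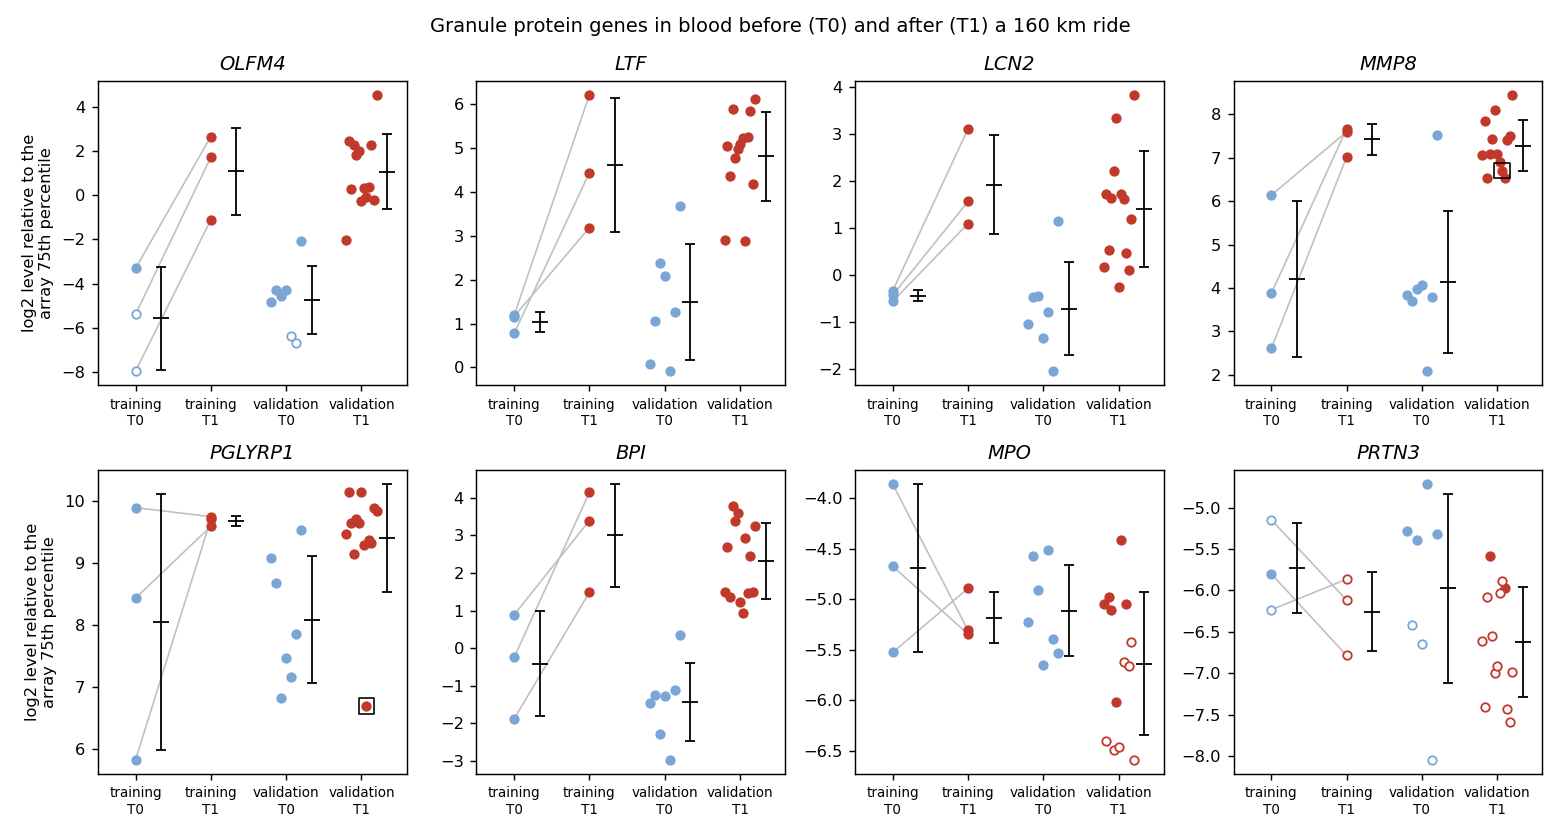
Log2 level of each granule gene relative to the array's 75th percentile (y axis) on every array of the 4 groups (x axis). Points are arrays, open where no probe of the gene was well above background and boxed where the probe was saturated, grey lines join the arrays of a training horse, and bars show the mean ± SD; *OLFM4* and *BPI* are the genes whose T1 arrays all lie above all T0 arrays in both sets.

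*OLFM4* encodes olfactomedin 4, a glycoprotein of secondary granules found in a subset of neutrophils. In the training set its level was -5.39, -7.95 and -3.31 at T0 in horses 2, 32 and 41, and 1.72, -1.11 and 2.65 at T1. Every T1 array was above every T0 array. The change was 5.96 in horse 41, the horse well above background at both times. For horses 2 and 32 the T0 level was set to no less than the lowest level well above background on the same array. With this the change was 7.10 and 6.38 on these signals, and the level of horse 2 stayed at -5.39. These are not lower limits, since neither T0 signal was well above background. The fitted change was 6.63 (SE 0.35, n = 3 horses), and it rests on T0 signals of horses 2 and 32 that were not well above background. It is given without a test, since *OLFM4* entered the fit through its T1 arrays.

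At T0 *OLFM4* was well above background on 1 of 3 training arrays and on 5 of 7 validation arrays, and at T1 on all 16 arrays. In the validation set the level lay between -6.68 and -2.09 at T0, with a median of -4.57, and between -2.01 and 4.54 at T1, with a median of 0.37. The ranges did not overlap, but the gap of 0.08 lies between horse 47 at T0 and horse 1 at T1. The change was 5.79 (SE 0.70), and 6.23 without horse 47. Both are given without a test, since *OLFM4* entered this fit through its T1 arrays too.

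The size of the *OLFM4* change depended on how the background was treated. After normexp and quantile normalization it was 3.72 in the training set and 3.55 in the validation set, and with the deposited log2 values 3.91 and 3.71. The second probe gave 6.37 and 5.74. These sizes are likewise given without a test.

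*LTF* encodes lactoferrin, the iron-binding protein of secondary granules. Its levels in the training horses were 1.16, 0.77 and 1.19 at T0 and 3.19, 4.44 and 6.21 at T1, again without overlap. The rise differed between horses, from 4.07-fold in horse 2 to 12.7-fold in horse 32 and 32.5-fold in horse 41. The fitted change was 3.57 (SE 0.52, adjusted p = 0.00659 in limma).

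The validation horses had *LTF* levels between -0.08 and 3.67 (median 1.26) at T0 and between 2.89 and 6.11 (median 5.04) at T1. 11 of 13 T1 arrays were above every T0 array, and the others, horses 1 and 34, were above all T0 arrays except that of horse 47. The change was 3.32 (SE 0.49, adjusted p = 2.9e-05 in limma), or 9.96-fold with a 95% confidence interval from 4.93 to 20.1.

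*LCN2* encodes lipocalin 2, or NGAL, which binds the siderophores through which bacteria take up iron. Levels were -0.34, -0.43 and -0.56 at T0 and 3.11, 1.56 and 1.09 at T1 in training horses 2, 32 and 41, so the horse with the largest *LCN2* rise (horse 2, 10.9-fold) was the one with the smallest *LTF* rise. The fitted change was 2.36 (SE 0.40, adjusted p = 0.0131 in limma). In the validation set *LCN2* lay between -2.05 and 1.14 (median -0.78) at T0 and between -0.26 and 3.83 (median 1.62) at T1, and 8 of 13 T1 arrays were above every T0 array. This change was 2.12 (SE 0.50, adjusted p = 0.00178 in limma).

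*MMP8*, neutrophil collagenase, is a protease of secondary granules that cleaves fibrillar collagen. Training horses had levels of 3.87, 2.61 and 6.14 at T0 and of 7.67, 7.02 and 7.60 at T1, so every T1 level was above every T0 level. The SD over horses was 1.79 at T0 and 0.36 at T1, and this difference in spread was not tested. The fitted change was 3.22 (SE 0.53, adjusted p = 0.0112 in limma).

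*MMP8* in the validation horses averaged 4.14 ± 1.64 (SD, n = 7) before the ride and 7.28 ± 0.59 (SD, n = 13) after it. The T0 arrays lay between 2.08 and 4.07, apart from horse 47 at 7.52, and the T1 arrays between 6.53 and 8.45. Horse 47 was thus above 9 of the 12 T1 arrays without saturation, and each of the other T0 arrays was below all of them. The change was 3.14 (SE 0.46, adjusted p = 2.73e-05 in limma) 3.70 without horse 47 and 3.19 without the saturated array of horse 34. Without horse 47 the SD at T0 was 0.74 (n = 6), close to that at T1, so the wider spread at T0 rests on this horse.

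*PGLYRP1* encodes peptidoglycan recognition protein 1, which binds bacterial cell walls. It was well above background on all 26 arrays, with levels of 8.43, 5.83 and 9.89 in training horses 2, 32 and 41 at T0 and of 9.59, 9.70 and 9.74 at T1. By this level, relative to the 75th percentile, horse 32 rose 14.6-fold and horse 2 rose 2.23-fold, and horse 41, already at 9.89 before the ride, had a ratio of 0.904 of T1 to T0. The fitted change of 1.63 (SE 0.64, adjusted p = 0.133 in limma) did not pass. It turned on single horses, with 0.50 (adjusted p = 0.558) without horse 32, 1.86 (adjusted p = 0.232) without horse 2 and 2.51 (adjusted p = 4.47e-05) without horse 41.

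In the validation set *PGLYRP1* lay between 6.83 and 9.52 (median 7.86) at T0. At T1, 12 horses lay between 9.15 and 10.1, and the saturated array of horse 34 gave 6.70. The change was 1.32 (SE 0.40, adjusted p = 0.0112 in limma), and 1.54 (adjusted p = 0.000417) without horse 34 and 1.78 (adjusted p = 2.69e-05) without horses 34 and 47. The T1 signal had a median of 77.1% of the brightest spot on the same array, beside 22.2% at T0, and whether the upper end of the scanner's range held the T1 values down was not tested.

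Among the primary granule proteins of the 10 genes, *BPI*, the bactericidal/permeability-increasing protein that binds bacterial lipopolysaccharide, was the gene that rose. Training horses 2, 32 and 41 had *BPI* levels of -0.25, -1.88 and 0.89 at T0 and of 4.15, 1.49 and 3.40 at T1. Each horse rose, by 21-fold, 10.3-fold and 5.69-fold. The fitted change was 3.42 (SE 0.40, adjusted p = 0.00344 in limma).

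*BPI* separated the validation groups by 0.56, the widest gap among the granule genes in that set. Levels were between -2.98 and 0.36 (median -1.27) at T0 and between 0.92 and 3.79 (median 2.46) at T1. The change was 3.74 (SE 0.45, adjusted p = 4.37e-06 in limma), or 13.4-fold with a 95% confidence interval from 7.04 to 25.4. The 3 overlapping probes gave between 3.68 and 3.74.

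*MPO*, myeloperoxidase, makes hypochlorous acid and is a defining enzyme of primary granules. Its levels were -4.67, -3.86 and -5.53 at T0 and -5.35, -5.31 and -4.89 at T1 in the training horses, which overlap, and horse 41 rose while horses 2 and 32 fell. The fitted change was -0.50 (SE 0.42, adjusted p = 0.464 in limma), with a 95% confidence interval from -1.46 to 0.47, and between -1.06 and -0.019 without each horse in turn. In the validation set the fitted change was -0.52 (SE 0.28), with an interval from -1.11 to 0.06. It is given without a test. *MPO* entered this fit through its T0 arrays, being well above background on 7 of 7 there and on 6 of 13 at T1.

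*MPO* was well above background on all 10 T0 arrays and on 9 of 16 T1 arrays. The 7 dim arrays were all from validation horses at T1. The T0 levels of that set lay between -5.65 and -4.51 and its T1 levels between -6.59 and -4.41, and 1 T1 array, of horse 24, was above every T0 array. With normexp correction the change shrank to -0.11 in the training set and -0.057 in the validation set. The training interval covers a modest fall and no change, and does not reach the size of the *BPI* change.

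*PRTN3*, proteinase 3, is a serine protease of primary granules. It was well above background on 5 of 10 T0 arrays and on 2 of 16 T1 arrays. Training levels were -5.15, -5.80 and -6.23 at T0 and -6.12, -6.78 and -5.86 at T1, where none of the 3 arrays was well above background. Validation levels lay between -8.04 and -4.71 at T0 and between -7.59 and -5.58 at T1. Neither set gave a test.

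**Figure D2:**
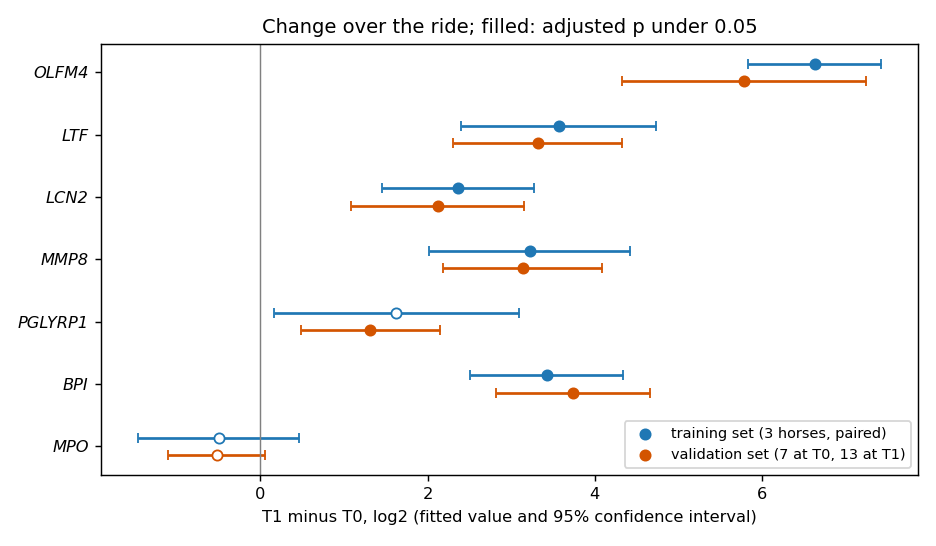
Fitted change from T0 to T1 on the log2 scale (x axis, with 95% confidence intervals) of the 7 granule genes tested (y axis) in the training set and in the validation set. Filled points passed an adjusted p of 0.05 and open points did not. *OLFM4* in both sets and *MPO* in the validation set are to be read without a test, since they entered those fits through the arrays of a single time point. The intervals of the sets overlap for every gene, from *OLFM4* at 6.63 and 5.79 down to *MPO* at -0.50 and -0.52.

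The non-overlapping genes can be set against all gene names tested. In the training set T1 lay above T0 on all arrays for 5 of the 7 granule genes, and this held for 17.7% of gene names, while 17.6% had every T1 array below every T0 array. In the validation set it held for *OLFM4* and *BPI*, 2 of 7, and for 1.45% of gene names, with 0.753% the other way round. *OLFM4* is in both counts although it entered the fits through its T1 arrays. Without it the genes are *LTF*, *LCN2*, *MMP8* and *BPI* in the training set and *BPI* in the validation set. *LTF*, *LCN2* and *MMP8* overlapped in the validation set through horse 47 alone: 6 of the 7 T0 arrays were below every T1 array for each of these genes.

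The change was measured in different horses in the 2 sets, and the sets could be compared in a fit of all 26 arrays. The difference of the change between sets (validation minus training) ranged over the 8 granule genes from -0.84 for *OLFM4* (95% confidence interval from -4.11 to 2.43) to 0.32 for *BPI* (from -1.76 to 2.40). None passed, with an adjusted p of 1 in limma for each, and 0 of 19413 gene names (0%) passed in this fit, 158 of them with an unadjusted p under 0.05. For 6 of the 8 genes the interval reached 2 log2 units or more in 1 direction, so a difference of that size between sets was not detectable with these horses. The T1 levels of the training horses fell inside the range of the validation T1 horses in all 3 horses for *OLFM4*, *LCN2*, *MMP8*, *PGLYRP1*, *MPO* and *PRTN3*, and in 2 of 3 for *LTF* and *BPI*. At T0 this held for all 3 horses for *LTF*, *LCN2*, *MMP8* and *PRTN3*, for 2 of 3 for *OLFM4*, *BPI* and *MPO*, and for 1 of 3 for *PGLYRP1*.

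Scans were made on 8 days, and 5 of these days held validation arrays of both time points. Within each of the 5 days T1 was higher than T0 for all 6 rising genes, by between 4.70 and 7.74 for *OLFM4*, 1.85 and 5.17 for *LTF*, 0.52 and 3.42 for *LCN2*, 2.50 and 5.0 for *MMP8*, 0.55 and 2.98 for *PGLYRP1* and 3.48 and 4.71 for *BPI*. *MPO* was lower at T1 on all 5 days, with differences between -1.95 and -0.225. Each day held 1 or 2 arrays at T0, so these are values without a test. For *OLFM4* the 7.74 rests on the T0 array of horse 40, and the 6.12 of another day on that of horse 29. On neither array was it well above background, so the size of these differences is uncertain. Without the arrays of horses 47 and 34 the differences were 2.91 to 5.0 for *MMP8* and 0.97 to 2.98 for *PGLYRP1*, and all 6 genes were again higher at T1 on each of the 5 days. Each training horse had its T0 and T1 arrays scanned on different days. With the scan day, the slide or the sex of the horse in the fit, the same number of granule genes passed in the validation set, 6 of 7 with *OLFM4*.

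Horse 47 stood apart at rest. Its *OLFM4* level of -2.09 and its *BPI* level of 0.36 were the highest at T0 yet below all 13 T1 arrays. For *LTF* it was above 2, and for *LCN2* above 5 of the 13 T1 arrays, and for *PGLYRP1* above 5 and for *MMP8* above 9 of the 12 T1 arrays on which these were not saturated. The mean level of the mature neutrophil genes was 2.84 in this horse, between 1.06 and 1.25 in the other 6 T0 horses and between 2.44 and 3.57 at T1. Without it the changes were 6.23 for *OLFM4*, 3.68 for *LTF*, 2.43 for *LCN2*, 3.70 for *MMP8*, 1.56 for *PGLYRP1* and 4.04 for *BPI*. Training horse 41, with the highest T0 level of its set for these genes except *LCN2*, also had the highest mature neutrophil mean of its set at T0 (2.05, beside 1.16 and 0.93).

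Markers of blood cell types moved with the granule genes. The counts of this and of the next lists stand beside 20.3% of all gene names called higher and 23.9% called lower in the validation set, and 6.16% and 3.95% in the training set. Of the 15 mature neutrophil genes tested, 12 rose in the validation set and 10 in the training set, with a median change of 1.67 and 1.62. Their summed level lay between 6.83 and 9.43 at T0 and between 8.73 and 10.8 at T1 in the validation set, and between 6.16 and 8.87 and between 9.48 and 9.65 in the training set. 8 of 9 T cell markers fell in the validation set and 6 of 9 in the training set, and their summed level went from between 4.30 and 5.62 to between 3.59 and 4.43 in the validation set. Of the 8 monocyte markers, 5 rose and 1 fell in the validation set and 4 rose and 1 fell in the training set, with *CD14* well above background on all arrays. Their summed level went from between 6.58 and 8.03 to between 7.63 and 8.93. Of 7 B cell markers 6 fell in the validation set, and of 7 NK cell markers 4 fell and 1 rose. Both eosinophil markers tested and 2 of 3 basophil markers fell in the validation set, and 0 of 4 platelet markers passed. Of the genes of the IgE receptor of basophils, *FCER1A* fell by 3.74, and *MS4A2* was well above background on all 10 T0 arrays and on 0 of 16 T1 arrays. *MS4A2* is among the 2 basophil calls, although it entered the fit through its T0 arrays. Of the eosinophil calls, that of *IL5RA* has the same limit. It was well above background on 8 of 10 T0 arrays and 5 of 16 T1 arrays, too few at T1 to enter the fit by these alone. Of 3 erythroid markers *HBB*, the beta globin of red cells, rose by 2.25 (adjusted p = 0.0115 in limma) and by 2.52 in the training set (adjusted p = 0.0433). *HBB*, *ALAS2* and the platelet markers *GP9* and *TUBB1* were well above background on all 26 arrays, so red cell and platelet RNA is in these samples. The genes of this paragraph were named after their values were seen. *S100A8* and *S100A9*, the calprotectin subunits that neutrophils and monocytes hold in abundance, were well above background on all 26 arrays. The part of these shifts in the granule gene changes was not tested.

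The granule changes were also measured against neutrophil genes in place of the array's 75th percentile. For this, each array was scaled to the mean of the 14 mature neutrophil genes that were well above background on all arrays, an alternative chosen after the data were seen. This scale lowers every gene alike, by about 1.64 in the training set and 1.53 in the validation set, and moved the median change of all gene names tested from 0.03 to -1.62 and from -0.07 to -1.6. On it 67.2% and 90.8% of the gene names tested were called lower and 0.606% and 1.10% higher, and the share of calls that were higher at T1 went from 60.9% to 0.89% and from 45.9% to 1.20%.

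On the neutrophil scale a change says how far a gene moved beyond the mean of those 14 genes. *OLFM4* was higher at T1 by 4.99 in the training set and 4.26 in the validation set, sizes that rest on the same T0 signals near background as before and are given without a test. *LTF* (1.92 and 1.78), *MMP8* (1.58 and 1.6) and *BPI* (1.78 and 2.21) passed as higher in both sets. *LCN2* had 0.72 and 0.59 (adjusted p = 0.265 and 0.153 in limma) and *PGLYRP1* -0.021 and -0.22 (adjusted p = 0.974 and 0.566 in limma), so neither was shown to move beyond these genes. *MPO* was called lower in the training set, at -2.14, as were most gene names there. Its -2.06 in the validation set is given without a test, since *MPO* entered that fit through its T0 arrays. Relative to the median of all gene names tested, the changes of these genes agreed on both scales within rounding, for instance -0.53 and -0.52 for *MPO* in the training set.

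**Figure D3:**
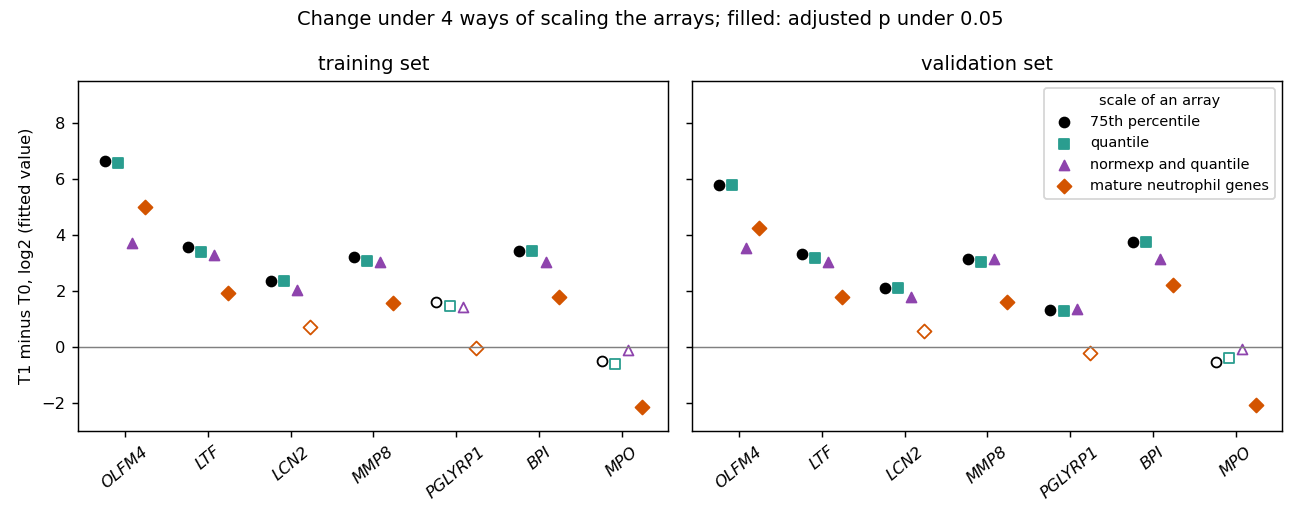
Change from T0 to T1 on the log2 scale (y axis) of 7 granule genes (x axis) in each set when arrays were scaled to the 75th percentile, by quantiles, by quantiles after normexp background correction, or to the mature neutrophil genes. Filled symbols passed an adjusted p of 0.05, but *OLFM4* in both sets and *MPO* in the validation set are to be read without a test. On the neutrophil scale *OLFM4* stays at 4.99 and 4.26 while *PGLYRP1* lies at -0.021 and -0.22. Every gene is shifted down alike, by about 1.64 in the training set and 1.53 in the validation set.

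Genes of earlier stages of the lineage were looked at next. Of the 9 cell division genes tested in the validation set, which dividing marrow precursors use and mature neutrophils do not, 6 fell and 0 rose, with a median of -0.87, and 4 of 8 fell in the training set. Lymphocytes use these genes too, and T cell (8 of 9 fell, median -1.47), B cell (6 of 7, median -1.41) and NK cell markers (4 of 7, with 1 higher, median -1.08) were lower in the same validation samples; their part in this fall was not tested. Of 5 early progenitor genes 1 rose in the validation set, or 1 of 6 in the training set, near the share of 20.3% over all gene names in the validation set. This gene was *MS4A3*, with a rise of 1.78 (SE 0.42, adjusted p = 0.00184 in limma). It encodes a membrane protein of granulocyte and monocyte progenitors, was named after its value was seen, and was well above background on 9 of 10 T0 arrays and all 16 T1 arrays. *CD34*, the stem and progenitor marker, likewise named after its value was seen, was well above background on 1 of 26 arrays.

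Genes of other proteins of these granules, and for the primary granules also of their processing, were counted in the same way. Of 14 other secondary and gelatinase granule genes tested, 10 rose and 1 fell in the validation set, beside 20.3% higher and 23.9% lower over all gene names, and 6 rose and 0 fell in the training set, beside 6.16% and 3.95%. The median change was 0.87 and 0.84. *HP*, haptoglobin, rose by 5.95 (SE 0.89, adjusted p = 3.14e-05 in limma), and *SLPI*, the secretory leukocyte protease inhibitor, by 2.38 (SE 0.39, adjusted p = 7.67e-05). *CYBB*, the catalytic subunit of the NADPH oxidase, fell by 0.70 (SE 0.28, adjusted p = 0.044). *MMP9*, the gelatinase that names the latest granules, changed by 0.24 (SE 0.24, adjusted p = 0.453) and *LYZ*, lysozyme, by -0.38 (SE 0.20, adjusted p = 0.137), and both were named after their values were seen.

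Of 6 other genes of primary granule proteins and their processing tested in the validation set, 1 rose and 1 fell. Their median was -0.0077, and 20.3% and 23.9% of all gene names rose and fell. The primary and secondary lists were not tested against each other. *SERPINB1*, an inhibitor of the neutrophil serine proteases, rose by 2.03 (SE 0.24, adjusted p = 4.16e-06 in limma). *CTSC*, the peptidase that activates those proteases, fell by 0.94 (SE 0.15, adjusted p = 7.09e-05). For *ELANE*, neutrophil elastase, no probe was found.

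Among the transcription factors of granulopoiesis, 5 of 9 rose and 1 fell in the validation set, beside 20.3% higher and 23.9% lower over all gene names. 1 of 9 rose and 0 fell in the training set, beside 6.16% and 3.95%. *CEBPB*, which drives emergency granulopoiesis, rose by 2.37 (SE 0.27, adjusted p = 3.44e-06 in limma), and in the training set by 2.52 (adjusted p = 0.00442). *CEBPE*, which is needed for secondary granule genes, rose by 0.97 (SE 0.20, adjusted p = 0.000488) in the validation set and changed by 1.02 in the training set (adjusted p = 0.0752). *LEF1* fell by 0.87 (SE 0.21, adjusted p = 0.00203). It is also a T cell gene, and T cell markers fell in the same samples.

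Of 13 genes of neutrophil release from marrow, 7 rose and 1 fell in the validation set, beside the same 20.3% and 23.9% over all gene names. Of the 12 tested in the training set 6 rose and 1 fell, beside 6.16% and 3.95%. The list shares *CXCR2*, *CSF3R* and *ITGAM* with the mature neutrophil list, and these make up 3 of its 7 rises in the validation set and 2 of its 6 in the training set. *CXCL1* and *CXCL8*, chemokines that draw neutrophils, rose by 3.82 (SE 0.42, adjusted p = 2.5e-06 in limma) and 3.44 (SE 0.55, adjusted p = 5.98e-05). *ITGA4*, an integrin subunit that holds cells in the marrow and is carried by lymphocytes too, fell by 1.40 (SE 0.24, adjusted p = 0.000124). *CXCR4*, the marrow retention receptor, and *CSF3*, the growth factor G-CSF, had changes of 0.37 (adjusted p = 0.107) and -0.29 (adjusted p = 0.0594), and were named after their values were seen.

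**Figure D4:**
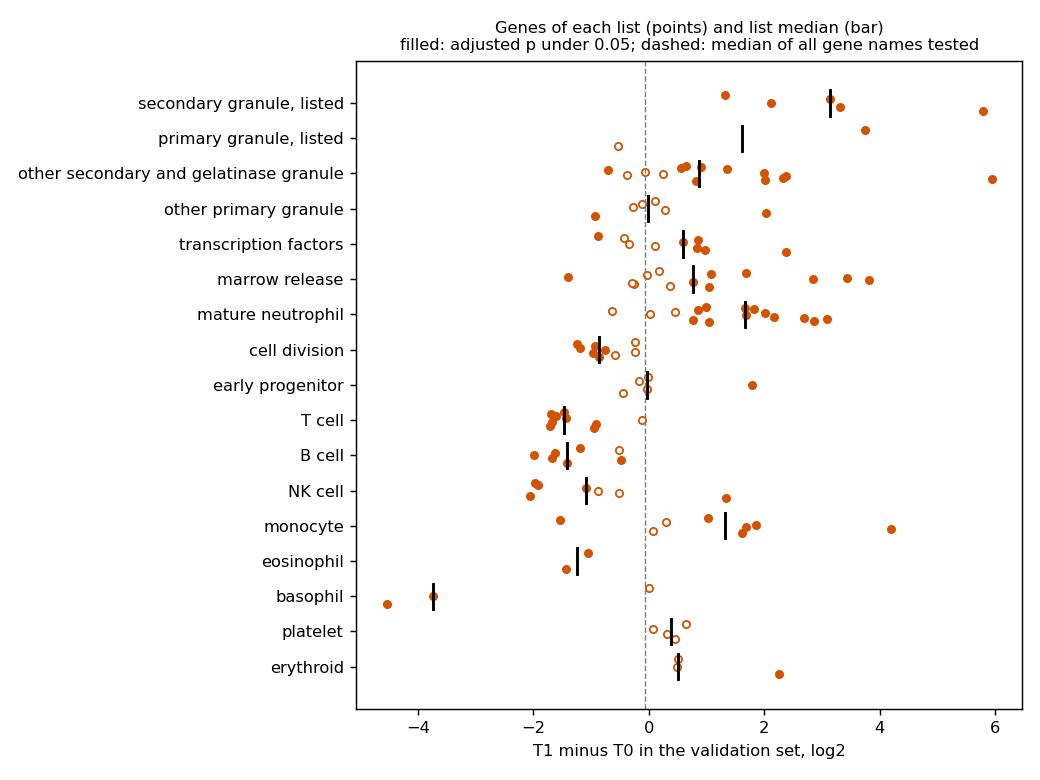
Change from T0 to T1 in the validation set on the log2 scale (x axis) of each gene tested (points) in 17 lists of granule, lineage and blood cell genes (y axis), with the median of each list (black bar) and of all gene names tested (dashed line, at -0.07). Filled points passed an adjusted p of 0.05, among them *OLFM4*, *MS4A2* and *IL5RA*, whose calls have the limits given in the text. The listed secondary granule genes, *OLFM4* included, have a median of 3.14, the mature neutrophil genes of 1.67 and the T cell genes of -1.47.

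The granule genes also varied among the 13 validation horses at T1. The SD at T1 was 1.69 for *OLFM4*, 1.23 for *LCN2*, 1.02 for *LTF* and *BPI*, 0.87 for *PGLYRP1* and 0.59 for *MMP8*. Without the saturated array of horse 34 it was 0.33 for *PGLYRP1* and 0.59 for *MMP8* (n = 12). Horse 62 had the highest level of 4 of the 6 genes that were well above background on all these arrays, *OLFM4* (4.54), *LTF* (6.11), *LCN2* (3.83) and *MMP8* (8.45). Horse 1 had the lowest *OLFM4* (-2.01), and horse 21 the lowest *LCN2* (-0.26).

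For the 15 pairs of these 6 genes, correlations over the 13 horses were computed with a permutation test of 100000 resamples, adjusted over the pairs by Benjamini-Hochberg. Pearson's r was above 0 for 13 pairs and passed for 6. *OLFM4* and *LTF* had the highest, with r = 0.769 (permutation p = 0.00157, adjusted p = 0.0235) and Spearman's rho = 0.692 (permutation p = 0.011, adjusted p = 0.103). Without horses 1 and 62, the farthest from the median of *OLFM4*, r was 0.579. *LCN2* and *MMP8* had r = 0.712 (adjusted permutation p = 0.0281), rho = 0.599, and r = 0.589 without horses 21 and 62. *OLFM4* with *BPI* had r = 0.697 (adjusted permutation p = 0.0281), rho = 0.560, and r = 0.734 without horses 1 and 62. The others that passed were *OLFM4* with *MMP8* (r = 0.698), *OLFM4* with *LCN2* (r = 0.685) and *LCN2* with *BPI* (r = 0.675), and their r was 0.616, 0.417 and 0.613 without the 2 farthest horses.

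*LTF* passed with *OLFM4* and with no other gene, with r = 0.276 for *LCN2*, 0.402 for *MMP8* and 0.266 for *BPI*. Without the array of horse 34 these were 0.372, 0.299 and 0.455. *PGLYRP1* passed with no other gene. Its r with *LTF* was 0.492 over 13 horses and -0.127 without the saturated array of horse 34. No pair passed by Spearman's rho, and after normexp correction no pair passed by Pearson's r, so these correlations depended on the background correction and on the measure used. Too few arrays share a scan day at T1 for the correlations to be repeated within days.

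**Figure D5:**
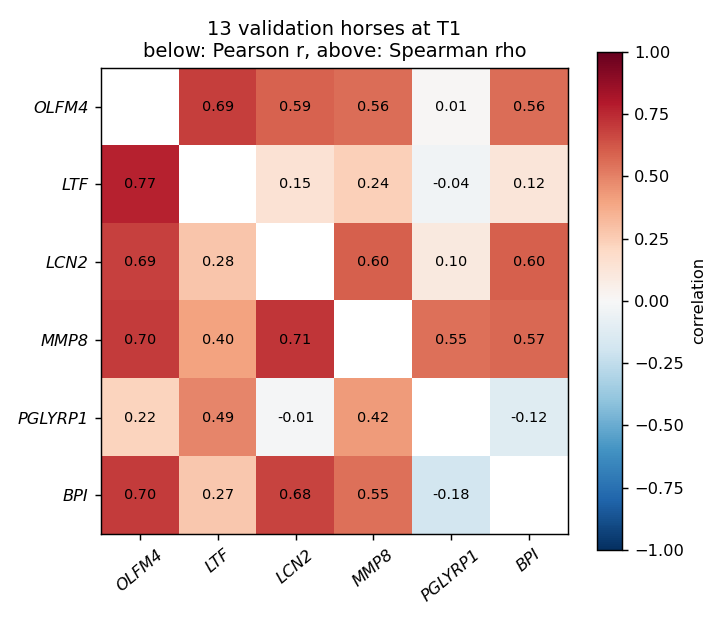
Correlation of 6 granule genes over the 13 validation horses at T1, as Pearson's r below the diagonal and Spearman's rho above it, with colour from -1 (blue) to 1 (red). *OLFM4* with *LTF* has the highest r, 0.77, and *PGLYRP1* with *BPI* has the lowest, -0.18, which is -0.045 without the saturated array of horse 34.

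Genes whose levels followed the secondary granule genes from horse to horse were looked for among 10230 gene symbols, after the mean of each of the 4 groups was removed. The 5 with the highest Pearson r over the 26 arrays with the mean profile of the 5 secondary granule genes were *MMP27* (0.902), *IL1R2* (0.864), *S100A9* (0.855), *SERPINB1* (0.848) and *MAP3K4* (0.83). *OLFM4* and *MMP8* themselves had r = 0.903 and 0.891 with that profile, *LTF* 0.714, *PGLYRP1* 0.661 and *LCN2* 0.629. The profile holds these genes, so their own values are higher than they would be without them. Without the arrays of horses 47 and 34, *MMP27* (0.875) and *IL1R2* (0.821) again came highest, *SERPINB1* and *S100A9* were 7th and 8th (both 0.786) and *MAP3K4* was 30th (0.706).

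*MMP27*, a matrix metallopeptidase, is the gene next to *MMP8* in the RefSeq gene table, and its 2 probes share runs of at most 6 bases with the *MMP8* probes. It rose by 4.57 in the training set (SE 0.58, adjusted p = 0.00434 in limma) and by 4.34 in the validation set (SE 0.52, adjusted p = 4.37e-06). *IL1R2*, the decoy receptor for interleukin-1, rose by 6.30 and 6.06, and *MAP3K4*, a kinase of the stress-activated MAP kinase pathways, by 3.09 and 2.59. *SERPINB1* thus came up both here and in the list of other genes of primary granule proteins and their processing.

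The same search for the primary granule genes rests on the mean profile of *BPI* and *MPO*, each of which had r = 0.471 with it. A value this low for a mean of 2 genes arises where these deviate in opposite directions, so the symbols below follow the mean and need not follow either gene. *QPCTL* (0.713), *HS3ST3B1* (0.687), *CHST10* (0.669), *CA12* (0.659) and *ENGASE* (0.647) came highest. Without the arrays of horses 47 and 34, *QPCTL* (0.724) and *CHST10* (0.699) stayed among the 5 highest, and *CA12*, *ENGASE* and *HS3ST3B1* were 20th, 27th and 30th. *CA12*, a carbonic anhydrase, rose by 3.33 and 2.57 in the training and validation sets (adjusted p = 0.00356 and 4.13e-06 in limma). *QPCTL*, a Golgi glutaminyl cyclase, and *ENGASE*, which cleaves N-glycans, fell by 0.74 and 1.01 in the validation set (adjusted p = 0.0282 and 0.0172).

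The limits of the training set are those of 3 horses. Without horse 2, *LCN2* and *MMP8* no longer passed (adjusted p = 0.0719 and 0.0775 in limma). Without the filter on dim gene names *LTF*, *LCN2*, *MMP8* and *BPI* did not pass there (adjusted p between 0.0614 and 0.108 in limma), with the same fitted changes. *OLFM4* did, but on T0 signals of horses 2 and 32 that were not well above background.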

How the data were processed

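The authors deposited an intensity per spot for 26 arrays of 23 horses, made by Agilent Feature Extraction 10.7.3.1, which subtracted background, and a series table of log2 values. Rank order within arrays of that table was the order of median signal minus background median (lowest Spearman 1). Feature flags (other values) were deposited by the authors in the same files. Of 45220 spots per array, 43803 were no controls, and 386 outlier spots over all arrays were left out. Each array's 75th percentile (8.74 to 9.76) was subtracted from log2 gProcessedSignal, and the brightest probe stood for a gene name. No 2 arrays were identical (highest r 0.985). Precision is limited by the number of arrays.

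limma 3.58.1 in R 4.3.3 was fitted to gene names well above background on 3 training arrays (horse as a block), 7 validation arrays, or 3 of 26 (interaction, horse as a random block, consensus correlation -0.07). Scripts were tested on simulated data. In the training set the pairing comes from the same horse sampled 2 times; deviations of its arrays had r = -0.0087, 0.213 and 0.191. The granule genes, lists and tests were chosen with earlier results of these data known. Named genes are the 10 granule genes, the 5 symbols closest to each class profile among gene names well above background on 13 arrays, and the 2 largest rises and falls that passed in the validation set in each list of other granule genes, transcription factors and marrow release genes; other genes were named after their values were seen. Alternatives were other background corrections, normalizations, filters, probes, covariates and left-out arrays. The neutrophil scale, and spreads, likeness and changes without horses 47 and 34, were chosen after seeing the data. Symbols were found for 14811 of 24415 gene names.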

Additional observations from a re-analysis of the deposited data

Results flagged for a closer look

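*MMP8* in validation horse 47 at T0 had a level of 7.52. The nearest other T0 horse was at 4.07, and the gap was 0.634 of the range of the 7 horses, past Dixon's critical value at the 95% level. Of 8 granule genes looked at in this way, it was the 1 that passed. Without this horse the *MMP8* change was 3.70 in place of 3.14.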

How the results depend on the processing

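The validation set gave 6 granule genes past the threshold without each array in turn, counting *OLFM4*, which entered the fit through its T1 arrays. Among gene names above background on every array, which leave *OLFM4* out, 5 of 5 tested passed. Its count of 7688 gene names went from 6769 to 8298 over the left-out arrays and to 15995 on the mature neutrophil scale. The training count of 1768 moved more: 239 without horse 2, 690 without horse 32 and 3169 without horse 41, 46 without a filter, 2816 above background on every array, 2704 with all 26 arrays in a single fit and 11858 on the mature neutrophil scale. In the training set 3 (without horse 2) to 5 granule genes passed without each horse, and *LCN2* did not pass with all 26 arrays in a single fit (adjusted p = 0.0695 in limma). Without a filter 1 passed, *OLFM4*. The fitted changes of *LTF*, *LCN2*, *MMP8* and *BPI* stayed at 3.57, 2.36, 3.22 and 3.42 in that fit. *OLFM4* could not be tested without horse 41, since it was above background on 2 arrays of those left. With no replicate block for the horse, 1785 gene names and the same number of granule genes, 5, passed, and the difference between sets gave 0. Correlations passed for 6 pairs, also without horse 34 and after quantile normalization, and for 0 after normexp.

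On the mature neutrophil scale, which lowers every gene alike, *PGLYRP1* came to -0.021 (training) and -0.22 (validation), so the change of sign belongs to the scale. Differences between sets, none of which passed, turned sign for *MMP8* (0.094) and *MPO* (0.0496) after normexp, and for *MPO* (0.20) and *PRTN3* (0.26) after quantile normalization. The causes were not tested. Genes near background, *OLFM4* at T0 and *MPO* and *PRTN3* throughout, have the least certain sizes.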
